A study of Mus musculus with 6 samples.

Results

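The genes described here encode the kainate receptor subunits (*Grik1*, *Grik2*, *Grik3*, *Grik4* and *Grik5*), the delta receptor GluD1 (*Grid1*) and the auxiliary subunits of kainate receptors (*Neto1* and *Neto2*). They were chosen by symbol, and all 8 were among the 21876 genes tested, of 55357 genes in the deposited counts. The data were 6 RNA-seq libraries of primary neuronal cultures, prepared from the cortex and hippocampus of wild-type C57BL/6N mouse embryos at embryonic day 18. In the sh*Pla2g4e* group (3 libraries) the cultures had received at 4 days in vitro (DIV4) a lentivirus that expresses the sh2 short hairpin RNA against *Pla2g4e*, and in the shCtrl group (3 libraries) they had received the same amount of a lentivirus with a scrambled hairpin. All were collected at DIV14, so that both groups share the wild-type genotype, the viral vector, the time of transduction and the age of the culture. *Pla2g4e* encodes an N-acyltransferase of the phospholipase A2 family, and the comparison asked how neuronal gene expression changes when it is reduced. The virus dose had been set by its effect on the *Pla2g4e* transcript, so that the model is a partial knockdown in a culture of mixed cell types. The labels do not say that the libraries came from separate cultures, and the p-values then measure only the spread between these 6 libraries.

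Kainate receptors are glutamate-gated cation channels. The subunits GluK1, GluK2 and GluK3 (*Grik1* to *Grik3*) can form channels by themselves, while GluK4 and GluK5 (*Grik4* and *Grik5*) bind kainate with high affinity and reach the surface as functional channels only together with a subunit of the first kind. They act at postsynaptic sites and in axon terminals, where they modulate transmitter release, and in the hippocampus they are best known from the mossy fibre synapse. Neto1 and Neto2 are single-pass membrane proteins that bind the channel and slow its closing. GluD1 is related in sequence but works mainly as a synaptic organizer, held by cerebellins (the *Cbln* family) to neurexins of the presynaptic membrane.

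The sh2 hairpin is the agent that separates the groups, and its target and guide strand are therefore shown with the places where the same 7 bases occur in a coding sequence of these genes. The target lies in the coding part of exon 11 of *Pla2g4e* (GRCm38, chr2:120182753-120182771, minus strand). Bases 2 to 8 of the guide are its seed, in capitals in the guide, and capitals in the other sequences mark GTGGCCA, the sequence that pairs with the seed. All are written 5′ to 3′ on the strand of the transcript.
sh2 target: ggaagatggtgGTGGCCAa
sh2 guide: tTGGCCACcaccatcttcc
*Grik4* exon 20: gtggcttaataGTGGCCAtttttatggct
*Grid1* exon 12: cggtgaactctGTGGCCAtgcgcatcgtg
*Grid1* exon 15: aagcagaagtgGTGGCCAcacacaggtcg
The *Grik4* site lies at chr9:42524525-42524553 (minus strand), and the *Grid1* sites lie at chr14:35452273-35452301 and chr14:35569538-35569566 (plus strand). In the second of the *Grid1* sites, 10 bases in a row are shared with the target. Over the protein-coding transcripts of the GENCODE vM21 annotation, GTGGCCA occurred in the coding sequence of 2 of the 8 genes (25.0%) and in that of 26.1% of 15704 tested genes with an annotated 3′ UTR. It occurred in a 3′ UTR of 1 of the 8 genes (12.5%), *Neto1*, and of 14.6% of these 15704 genes. *Grik1*, *Grik2*, *Grik3*, *Grik5* and *Neto2* held it in neither region. Only the transcript strand and only these 7 letters were searched.

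Between 17054717 and 23570180 reads were counted per library. *Pla2g4e* had a CPM (the standard unit of reads in proportion to library size, here scaled with TMM factors) of 38.0, 35.1 and 35.4 in the shCtrl libraries, called control libraries 1 to 3 here after their replicate numbers, and of 21.8, 14.15 and 18.7 in the sh*Pla2g4e* libraries, called knockdown libraries 1 to 3. This is a log2 fold change of −0.99 (adjusted p = 0.000124 by edgeR's quasi-likelihood test, standard error 0.13), and the targeted gene followed the labels in every library. The 8 genes were well covered, with between 436 reads (*Grik1*) and 7028 reads (*Grik5*) in a library.

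Of the 8 genes, *Grik3* was down-regulated in sh*Pla2g4e* cultures at an adjusted p of 0.01, and none was up-regulated (0 of 8). Over all genes tested, 4.0% were called lower and 2.48% higher. DESeq2 called 2 of the 8 lower (*Grik1* and *Grik3*) and 0 higher, where it called 7.42% and 4.2% of 16362 genes. Limma after voom called 1 lower and 0 higher, beside 4.23% and 2.3% of all genes. At an unadjusted p below 0.05 in edgeR's quasi-likelihood test 3 were lower and 1 was higher (*Grik5*), where 12.9% of all genes were lower and 12.8% higher. Fitted values were lower for 6 of the 8 genes and higher for 2. Their median log2 fold change was −0.14, beside 0.03 for all genes tested. In CPM, the groups did not overlap for 4 genes that were lower (*Grik1*, *Grik3*, *Neto1* and *Neto2*) and 1 that was higher (*Grik5*), against 14.6% of all genes lower and 15.5% higher without overlap. For *Neto1* this rested on a gap of 89.89 against 90.0 CPM, which depends on the scaling. The split of all calls between directions moves with the scaling. Of the genes called, 61.7% were lower with TMM factors and 43.3% with library size alone, and under library size the median of the 8 genes was −0.07 beside 0.10 for all genes. With library size alone the log2 fold changes given for each gene were nearer to 0 for *Neto2* (−0.14, adjusted p = 0.276), *Grid1* (−0.08), *Grik2* (−0.05) and *Neto1* (−0.05), and farther from 0 for *Grik4* (0.14) and *Grik5* (0.26). The libraries carry the same replicate numbers in both groups, which paired them as described with the processing. A fit with the replicate number as a block called 2 of the 8 genes lower (*Grik1* and *Grik3*) and none higher, where 9.02% of all genes were called lower and 6.5% higher.

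**Figure D1:**
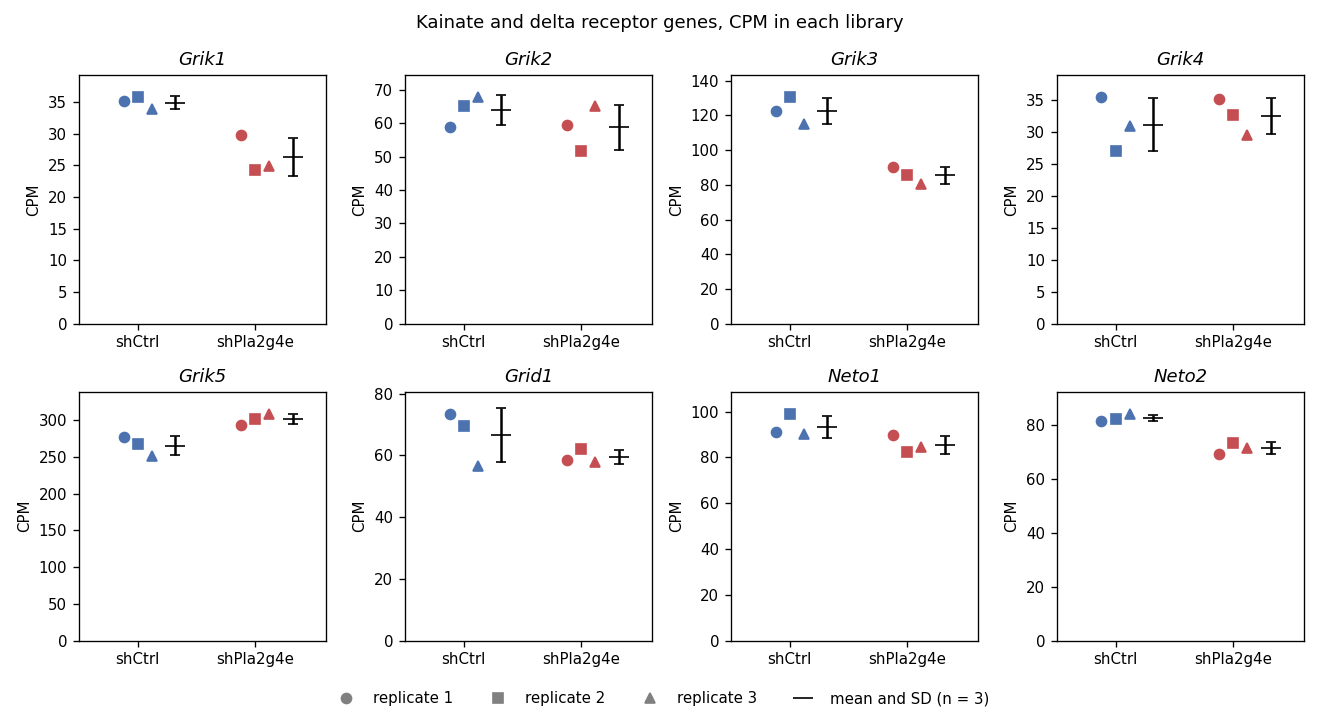
CPM of the 8 genes in each library, on axes that start at 0, with marker shape for the replicate number and the mean and SD of 3 libraries beside each group. *Grik3* lay at 115 to 130.3 CPM in shCtrl and at 80.7 to 90.5 CPM in sh*Pla2g4e* libraries, while the groups overlapped for *Grik2*, *Grik4* and *Grid1*.

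Among the subunits that form channels by themselves, *Grik3* was the one called. It encodes GluK3, which forms receptors of low sensitivity to glutamate, and it lies on chromosome 4 (GRCm39, chr4:125384493-125607966, plus strand). Its expression was 122, 130.3 and 115 CPM across the control libraries 1 to 3 and 90.5, 85.4 and 80.7 CPM across the knockdown libraries 1 to 3. Every sh*Pla2g4e* library lay below every shCtrl library. On average it had 122.6 ± 7.57 CPM in shCtrl and 85.55 ± 4.87 CPM in sh*Pla2g4e* (SD, n = 3 each), or 69.8% of the control level. In edgeR's quasi-likelihood test this was a log2 fold change of −0.52 with a standard error of 0.08, a 95% interval of −0.69 to −0.34 and an adjusted p of 0.000518. Within the replicate pairs the log2 ratios were −0.43, −0.61 and −0.51. By p-value *Grik3* ranked at position 452 of all genes and 308 of those with lower values. All 16 alternative fits kept it below the threshold, with log2 fold changes of −0.56 to −0.44 and adjusted p-values of at most 0.00769, reached without control library 2. None of its exon bases overlaps another gene. In a bulk sample such as these, fewer cells that express a gene and less of its RNA in each cell cannot be told apart.

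*Grik1* encodes GluK1, a subunit found in many interneurons, and lies on chromosome 16 (GRCm39, chr16:87692788-88087153, minus strand). It had 35.2, 35.7 and 33.8 CPM in control libraries 1 to 3, against 29.7, 24.2 and 24.9 CPM in knockdown libraries 1 to 3. The groups did not overlap, and knockdown library 1 lay nearest to the control libraries. Group means of *Grik1* were 34.9 ± 0.983 in shCtrl and 26.3 ± 3.005 CPM in sh*Pla2g4e* (SD, n = 3 each), or 75.3% of the control level. Its log2 fold change was −0.41 (95% interval −0.62 to −0.19) with an adjusted p of 0.0144 (edgeR's quasi-likelihood test), which missed the threshold. With the replicate block the adjusted p was 0.000387, and it was 0.00683 with DESeq2, 0.00923 with edgeR's robust fit and 0.00394 with no filter on low counts. Without knockdown library 1 it was 0.00925, without control library 2 it was 0.0696, and with scaling by library size alone it was 0.04. *Grik1* was therefore called or not depending on the fit, with a log2 fold change between −0.51 and −0.33 in all 16 alternatives.

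*Grik2* encodes GluK2, the main subunit of the mossy fibre receptor (GRCm39, chr10:48970929-49664862, minus strand). Its values were 59.0, 65.1 and 67.7 CPM across the control libraries 1 to 3 and 59.5, 51.6 and 65.1 CPM across the knockdown libraries 1 to 3. The groups overlapped, and knockdown library 2 was the lowest library. Its log2 fold change of −0.12 had a 95% interval of −0.33 to 0.08 (adjusted p = 0.472, edgeR's quasi-likelihood test), so that the interval spans 0. It was −0.08 without control library 3, −0.04 without knockdown library 2 and −0.20 without knockdown library 3.

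Of the high-affinity subunits, *Grik5* was the most abundant of the 8 genes and had higher values in sh*Pla2g4e* cultures without passing the test. It encodes GluK5, the widespread partner of GluK1 to GluK3 (GRCm39, chr7:24709274-24771771, minus strand). It had 277, 268 and 251 CPM in control libraries 1 to 3, against 294, 302 and 308 CPM in knockdown libraries 1 to 3. Every sh*Pla2g4e* library lay above every shCtrl library. Group means of *Grik5* were 265.5 ± 13.0 in shCtrl and 301 ± 7.13 CPM in sh*Pla2g4e* (SD, n = 3 each), or 113.5% of the control level. The log2 fold change was 0.18 (95% interval 0.02 to 0.34, adjusted p = 0.139, edgeR's quasi-likelihood test), and it was 0.26 with scaling by library size alone (adjusted p = 0.0178). None of the 16 alternative fits brought it below the threshold.

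*Grik4*, which encodes GluK4, had much lower counts (GRCm39, chr9:42429431-42855789, minus strand). Its values were 35.5, 27.1 and 31.0 CPM across the control libraries 1 to 3 and 35.3, 32.6 and 29.65 CPM across the knockdown libraries 1 to 3. The groups overlapped almost wholly, and the lowest value was that of control library 2. For *Grik4* the fitted log2 fold change was 0.06 (95% interval −0.17 to 0.30, adjusted p = 0.798, edgeR's quasi-likelihood test). Leaving out control library 2 turned it to −0.03 and leaving out knockdown library 1 to −0.0004, while it was 0.16 without control library 1 and 0.12 without knockdown library 3, so that no direction can be given.

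*Grid1* encodes the delta receptor GluD1 (GRCm39, chr14:34542065-35305336, plus strand). It had 73.35, 69.55 and 56.6 CPM in control libraries 1 to 3, against 58.4, 62.1 and 57.9 CPM in knockdown libraries 1 to 3. The shCtrl libraries were widely spread, and control library 3 lay below all sh*Pla2g4e* libraries. *Grid1* had a log2 fold change of −0.16 (95% interval −0.37 to 0.04, adjusted p = 0.326, edgeR's quasi-likelihood test). Without control library 1 this was −0.08, and without control library 3 it was −0.27 (adjusted p = 0.0632).

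The auxiliary subunits had slightly lower values in sh*Pla2g4e* cultures, and neither passed the test. *Neto2* (GRCm39, chr8:86363217-86427553, minus strand) had 81.6, 82.1 and 84.0 CPM across the control libraries 1 to 3 and 69.1, 73.4 and 71.5 CPM across the knockdown libraries 1 to 3. The groups stood apart with little spread within each, at 86.4% of the control level. The log2 fold change was −0.21 (95% interval −0.37 to −0.05, adjusted p = 0.0835, edgeR's quasi-likelihood test). *Neto1*, on the plus strand of chromosome 18, had 91.1, 98.8 and 90.0 CPM in control libraries 1 to 3, against 89.9, 82.2 and 84.6 CPM in knockdown libraries 1 to 3. With TMM factors the groups of *Neto1* touched without overlapping, since the highest sh*Pla2g4e* library (89.89 CPM) was just below the lowest shCtrl library (90.0 CPM). Their TMM factors were 1.015 and 0.9986, so that this order depends on the scaling. For *Neto1* the fitted log2 fold change was −0.12 (95% interval −0.29 to 0.04, adjusted p = 0.361, edgeR's quasi-likelihood test), and it was −0.08 without control library 2. The ratio of *Neto2* to *Neto1* per kilobase of exon was 1.22, 1.13 and 1.27 in shCtrl and 1.05, 1.22 and 1.15 in sh*Pla2g4e* replicates 1, 2 and 3. On the log2 scale the ratio differed by −0.09 (exact permutation test, two-sided, p = 0.4, n = 3 each), and the libraries overlapped. This difference ran from −0.03 without knockdown library 1 to −0.14 without knockdown library 2, with −0.05 without control library 3 and −0.13 without control library 2.

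**Figure D2:**
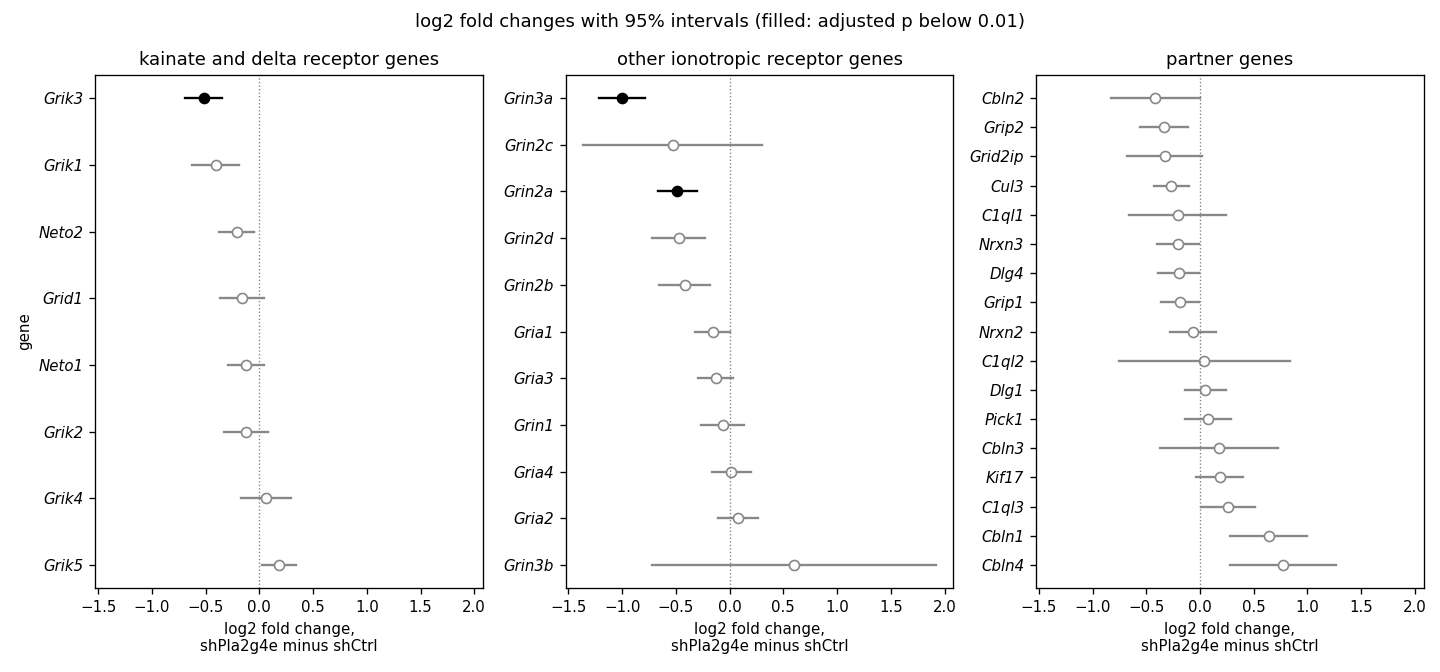
Log2 fold changes (sh*Pla2g4e* minus shCtrl, edgeR) with 95% intervals of the 8 genes, of the other ionotropic glutamate receptor genes and of partner genes, with filled points for genes at an adjusted p below 0.01. *Grik3*, *Grin3a* and *Grin2a* are filled, and all 3 lie below 0.

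How the kainate receptor genes divide the transcript pool was examined within each library, where the scaling between libraries plays no part. Reads per kilobase of exon of *Grik1* to *Grik5* were expressed as a percentage of their sum. *Grik5* took 64.7%, 63.9% and 63.3% of this total in shCtrl replicates 1, 2 and 3 and 69.5%, 72.2% and 72.5% in sh*Pla2g4e* replicates 1, 2 and 3. *Grik3* took 16.45%, 17.9% and 16.7% in shCtrl and 12.3%, 11.8% and 10.9% in sh*Pla2g4e* replicates 1, 2 and 3. *Grik5* thus held more and *Grik3* less of the total in every sh*Pla2g4e* library than in any control library.

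The mean share of *Grik5* was 64.0 ± 0.684% in shCtrl and 71.4 ± 1.635% in sh*Pla2g4e* (SD, n = 3 each), a difference of 7.46 percentage points. That of *Grik3* was 17.01 ± 0.763% and 11.7 ± 0.697%, a difference of −5.34 percentage points, and that of *Grik1* 6.475 ± 0.130% and 4.79 ± 0.537%, a difference of −1.685 percentage points. Each of these differences had an exact permutation p of 0.1 (two-sided, n = 3 each), which is the smallest that 3 against 3 libraries can give, and 0.167 after adjustment over the 5 genes. *Grik2* took 6.03 ± 0.640% and 5.43 ± 0.586% (exact permutation p = 0.4, n = 3 each) and *Grik4* 6.52 ± 0.819% and 6.68 ± 0.5955% (exact permutation p = 0.7, n = 3 each), with overlapping libraries. The difference for *Grik2*, −0.599 percentage points, was −0.924 without control library 1, −0.285 without control library 3 and −0.292 without knockdown library 2. Together, *Grik1* to *Grik3* made up 29.5 ± 1.215% in shCtrl and 21.9 ± 1.17% in sh*Pla2g4e* (SD, n = 3 each). With the length of the longest coding transcript in place of all exons, the share of *Grik5* was 66.6% and 73.8%, and that of *Grik3* 12.9% and 8.78%.

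**Figure D3:**
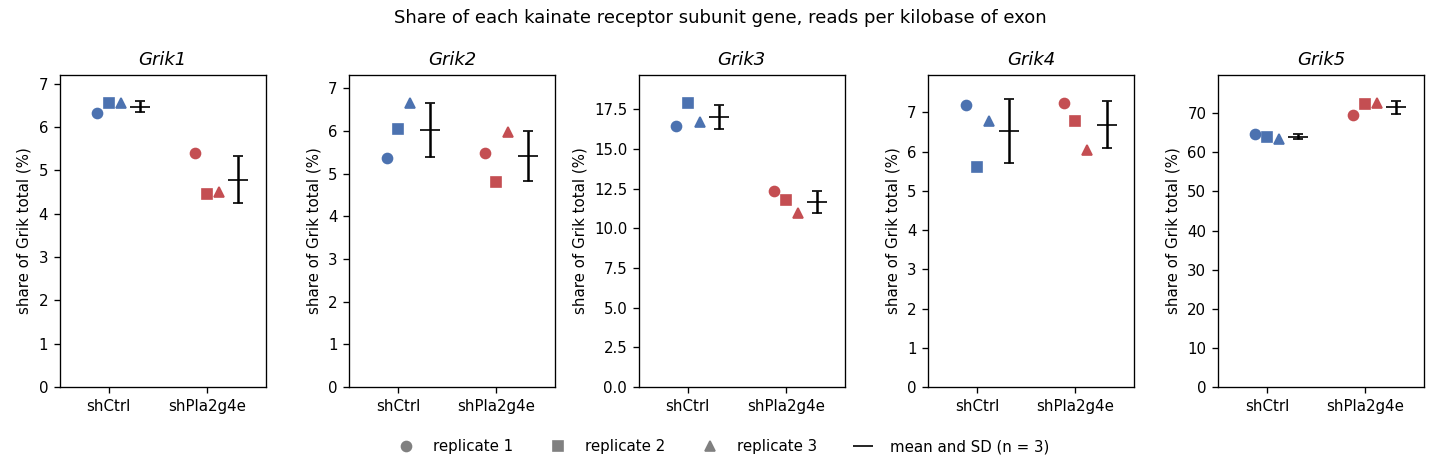
Share of each kainate receptor subunit gene in the summed reads per kilobase of exon of *Grik1* to *Grik5*, in percent, for each library, with the mean and SD of 3 libraries beside each group and axes that start at 0. *Grik1* and *Grik3* lay lower and *Grik5* higher in every sh*Pla2g4e* library than in any shCtrl library.

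With TMM factors, the group means of the summed level of the 5 genes differed by less than the spread between the control libraries. It was 82.85, 81.2 and 76.8 CPM per kilobase in shCtrl and 81.8, 80.9 and 82.2 CPM per kilobase in sh*Pla2g4e* replicates 1, 2 and 3 (exact permutation test, two-sided, p = 0.8, n = 3 each). Unlike the shares, this sum depends on the scaling between libraries. It was not tested with library size alone, where the log2 fold changes of all 5 genes lay higher (for *Grik5*, 0.26 against 0.18). The ratio of *Grik3* to *Grik2* per kilobase was 3.06, 2.96 and 2.51 in shCtrl and 2.245, 2.44 and 1.83 in sh*Pla2g4e* replicates 1, 2 and 3 (exact permutation test, two-sided, p = 0.1, n = 3 each), without overlap. The ratio of *Grik5* to *Grik4* was 9.92 ± 1.30 and 10.8 ± 1.19 (SD, n = 3 each, exact permutation test, two-sided, p = 0.5).

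In levels per kilobase of exon, *Grik5* stood far above the other genes in shCtrl cultures, at 51.4 ± 2.52 CPM per kilobase (SD, n = 3). *Grik3* (13.7 ± 0.843) and *Neto2* (13.5 ± 0.203) followed, and their libraries overlapped. *Neto1* (11.2 ± 0.577) and *Grid1* (11.15 ± 1.47) also overlapped, below *Neto2*. *Grik4* (5.23 ± 0.6995), *Grik1* (5.20 ± 0.146) and *Grik2* (4.83 ± 0.338) were the lowest, with each overlapping the next. In sh*Pla2g4e* cultures, *Grik5* (58.3 ± 1.38) and *Neto2* (11.6 ± 0.357) led, and *Grik3* (9.53 ± 0.543) came after *Grid1*, with libraries that overlapped those of *Grid1* (9.97 ± 0.384). *Neto1* (10.25 ± 0.470) lay between *Neto2* and *Grid1* and overlapped *Grid1*. *Grik4* (5.45 ± 0.471), *Grik2* (4.43 ± 0.513) and *Grik1* (3.91 ± 0.447) were again last, with *Grik4* above both others and these overlapping each other. The exon length counts every annotated exon of a gene, so that a level depends on which length is taken (for *Grik1*, 6721 bases against 3655 in the longest coding transcript). With the longest coding transcript the order of the lowest genes turned round, with means in sh*Pla2g4e* of 7.19 for *Grik1*, 6.23 for *Grik2* and 5.52 CPM per kilobase for *Grik4*, each overlapping the next. In shCtrl these were 9.56, 6.78 and 5.30 CPM per kilobase without overlap, and *Neto2* (14.7) then lay above *Grik3* (13.7) without overlap.

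**Figure D4:**
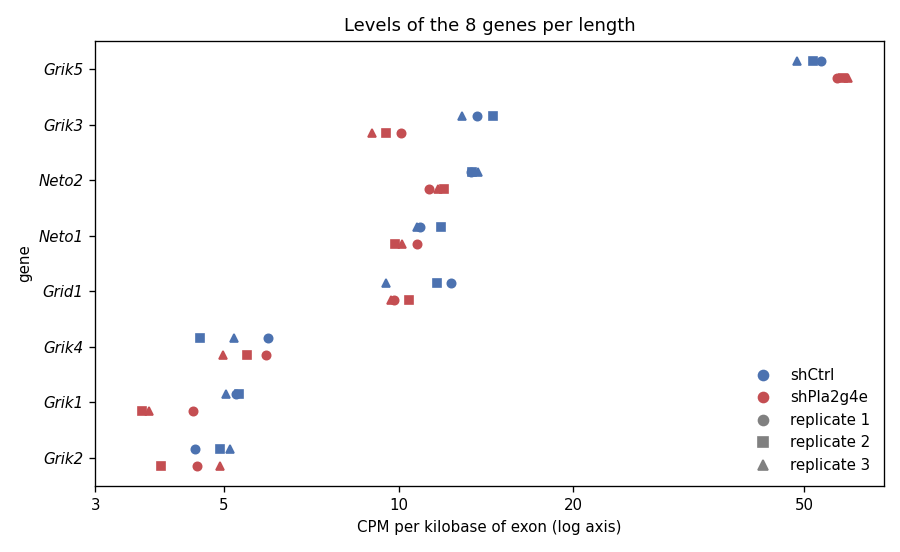
Level of each gene in CPM per kilobase of exon on a log axis, with 1 point for each library, colour for the group and shape for the replicate number. *Grik5* lay at the right of all others in both groups, and the *Grik3* libraries moved from beside *Neto2* in shCtrl to beside *Grid1* in sh*Pla2g4e*.

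Profiles over the 6 libraries were compared between genes as a description, by the root mean square difference of log2 CPM after each gene's own mean was taken off. Among 10907 genes that averaged at least 3 in log2 CPM, those nearest to *Grik3* were *Ppp2r5c* (0.03 on the log2 scale), a regulatory subunit of protein phosphatase 2A, *Dcx* (0.03), a microtubule-binding protein of young neurons, and *Fxyd7* (0.03), a regulator of the sodium pump. *Grik1* came at rank 164 from *Grik3*, and the other genes described here at ranks from 1683 (*Neto2*) to 8347 (*Grik5*). Nearest to *Grik5* were *Tceal6* (0.02), *Pef1* (0.02) and *Mlf2* (0.02), and none of these passed the test, with log2 fold changes of 0.19, 0.20 and 0.17. All of these profiles share the same 6 libraries.

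**Figure D5:**
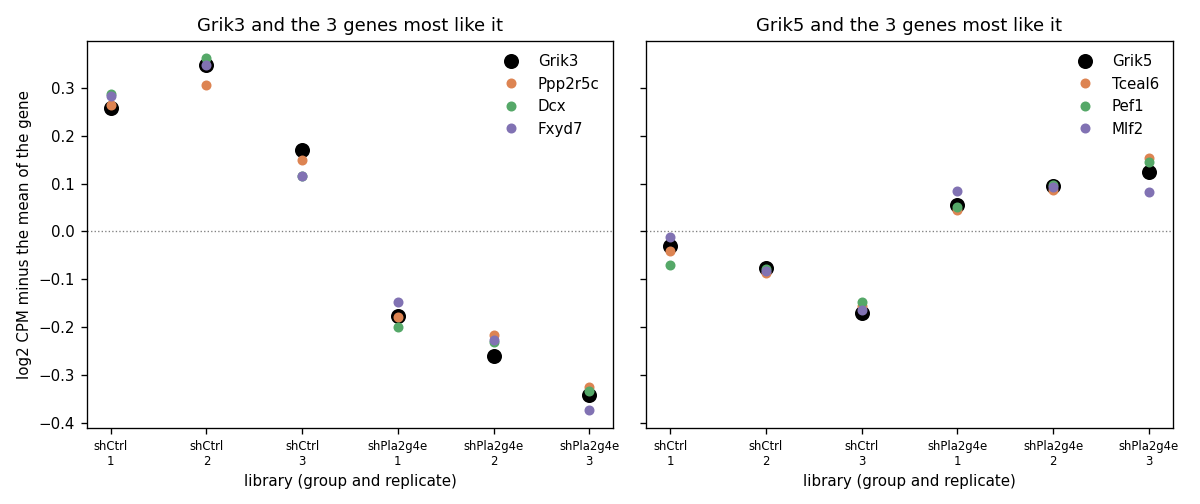
Log2 CPM minus the gene's mean in the 6 libraries for *Grik3* and *Grik5* (black) and the 3 genes nearest to each. *Grik3* and its nearest genes lay above 0 in all shCtrl libraries and below 0 in all sh*Pla2g4e* libraries, and *Grik5* and its nearest genes the other way round.

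Partner genes of these receptors were described as a list of 19 genes, of which 17 were tested. They encode extracellular bridging proteins (cerebellins, C1q-like proteins and neurexins), scaffolds and adaptors that bind receptor tails, proteins of a ubiquitin ligase and a dendritic motor protein. At most 4 reads of *C1ql4* were counted in a library, below the filter, and *Klhl17* was not analysed here. Of the 17 genes, edgeR called 0 lower and 0 higher, beside 4.0% and 2.48% of all genes. At an unadjusted p below 0.05, 5 were lower and 3 higher (*Cbln1*, *Cbln4* and *C1ql3*), beside the same 12.9% and 12.8% of all genes. DESeq2 called 1 lower (*Cul3*) and 0 higher, where it called 7.42% and 4.2% of 16362 genes, and limma after voom called 0 in both directions (4.23% lower and 2.3% higher over all genes). In sign they were mixed, with lower fitted values for 9 and higher ones for 8. Their median log2 fold change was −0.06 beside 0.03 for all genes, and 0.01 beside 0.10 with scaling by library size alone.

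*Nrxn2* and *Nrxn3*, which encode presynaptic adhesion molecules, did not pass, with log2 fold changes of −0.06 (95% interval −0.28 to 0.15) and −0.20 (95% interval −0.40 to −0.01). Of their exon bases, 6.44% (*Nrxn2*) and 3.46% (*Nrxn3*) overlap genes on the other strand. For *Nrxn2* the value was −0.17 without control library 3 and 0.01 without knockdown library 3 or with scaling by library size alone. Among the bridging proteins described, the largest fitted changes were positive. *Cbln1*, a cerebellin, had 41.5, 34.1 and 27.6 CPM in control libraries 1 to 3, against 53.0, 68.5 and 38.7 CPM in knockdown libraries 1 to 3. The groups overlapped, and yet each sh*Pla2g4e* library was above the shCtrl library of its own number. The log2 fold change was 0.64 with an adjusted p of 0.0191, and 9.89e-08 with the replicate block (edgeR's quasi-likelihood test). Over the 16 alternative fits the adjusted p ran from 1.02e-08 with no filter to 0.198 with the robust fit, with 4 of them below the threshold. It was 0.000273 without knockdown library 3 and 0.1 without knockdown library 2, where the log2 fold change was 0.42. *Cbln4* had lower counts, at 2.42 to 5.09 CPM in shCtrl and 6.23 to 7.32 CPM in sh*Pla2g4e* libraries, which did not overlap. Its log2 fold change was 0.77 with an adjusted p of 0.0394, 0.00488 with no filter on low counts and 0.00069 with the block. *C1ql3*, which links kainate receptors to neurexins, had a log2 fold change of 0.26 with an adjusted p of 0.183, and 0.00767 with the block. Without control library 1 the log2 fold change was 0.39, and without control library 3 it was 0.12 (adjusted p = 0.531). Of its exon bases, 64.2% overlap genes on the other strand, from which reads were not told apart. *Cbln2* had 4.57 to 5.53 CPM in shCtrl and 3.61 to 4.285 CPM in sh*Pla2g4e* libraries, a fitted difference of −0.42 on the log2 scale with an adjusted p of 0.195.

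Of the intracellular partners described, edgeR called 0 with the filter and threshold used here and no block. *Cul3*, the scaffold of a ubiquitin ligase, had a log2 fold change of −0.27 (adjusted p = 0.0332, and 0.00106 with the block), and DESeq2 gave it an adjusted p of 0.00879. *Grip2*, a scaffold with several PDZ domains, had a log2 fold change of −0.33 (adjusted p = 0.0478, 0.000918 with the block and 0.00914 with no filter on low counts), and of −0.22 without knockdown library 2 (adjusted p = 0.195). *Dlg4*, which encodes the postsynaptic scaffold PSD-95, had 810 to 932 CPM in shCtrl and 673 to 797 CPM in sh*Pla2g4e* libraries, a fitted difference of −0.20 on the log2 scale (adjusted p = 0.167, and 0.00928 with the block). Without knockdown library 2 the difference of *Dlg4* was −0.13. *Grip1* had a log2 fold change of −0.19 (adjusted p = 0.166), and of −0.12 without control library 2. *Pick1*, *Dlg1* and *Kif17* had log2 fold changes of 0.08, 0.05 and 0.19, with overlapping groups, and the sign turned for *Pick1* without control library 2 (−0.003) and for *Dlg1* without knockdown library 1 (−0.04). A gene on the same strand overlaps 18.6% of the exon bases of *Pick1*, and 1.6% of those of *Kif17*. With scaling by library size alone, the log2 fold changes were −0.13 for *Nrxn3*, −0.11 for *Grip1*, −0.12 for *Dlg4*, 0.15 for *Pick1* and 0.12 for *Dlg1*. With the block, 3 partner genes were called lower (*Cul3*, *Grip2* and *Dlg4*) and 3 higher (*Cbln1*, *Cbln4* and *C1ql3*), beside 9.02% and 6.5% of all genes.

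The AMPA and NMDA receptor genes are the nearest relatives of the genes described here, and 2 of the 11 were called lower and 0 higher by edgeR, beside 4.0% and 2.48% of all genes. At an unadjusted p below 0.05, 4 were lower in edgeR (12.9% of all genes), 5 in DESeq2 (12.3%) and 6 in limma after voom (13.3%), and 0 were higher in each (12.8%, 10.5% and 12.7% of all genes). The median of the list was −0.16 on the log2 scale beside 0.03 for all genes, and −0.08 beside 0.10 with scaling by library size alone. The genes called lower, *Grin3a* and *Grin2a*, both encode NMDA receptor subunits. *Grin3a* had 58.65, 50.2 and 49.1 CPM across the control libraries 1 to 3 and 28.8, 25.15 and 24.85 CPM across the knockdown libraries 1 to 3, a log2 fold change of −1.0003 (adjusted p = 9.16e-06, edgeR's quasi-likelihood test). *Grin2a* had 97.5, 98.1 and 89.2 CPM in control libraries 1 to 3, against 74.7, 62.6 and 65.9 CPM in knockdown libraries 1 to 3, a log2 fold change of −0.49 (adjusted p = 0.00142, and 0.0142 without control library 2). The groups did not overlap for either gene. With the replicate block, *Grin2b* (log2 fold change −0.42, adjusted p = 0.021 without and 1.35e-07 with the block) and *Grin2d* (log2 fold change −0.47, adjusted p = 0.0131 without and 0.000249 with the block) were called lower as well, where 9.02% of all genes were. Genes on the other strand overlap 9.66% of the exon bases of *Grin2d*, 1.81% of those of *Grin2c* and 1.12% of those of *Grin2b*. Without control library 3, both passed without the block, at adjusted p-values of 0.000735 and 0.00336, and *Grin2c* passed without knockdown library 3 (0.00627, against 0.449 with all libraries). None of the AMPA receptor genes *Gria1* to *Gria4* passed, with log2 fold changes of −0.16 to 0.08, and of −0.08 to 0.15 with scaling by library size alone. The highest, that of *Gria2*, ran from 0.04 (without control library 2 or without knockdown library 1 or 3) to 0.12 without control library 3 and 0.15 without knockdown library 2. That of *Gria4*, 0.02 with all libraries, turned to −0.009, −0.03 and −0.02 without control library 1, knockdown library 1 and knockdown library 3 and was 0.09 without knockdown library 2, so that no direction can be given. The fold change of *Grik3* was near that of *Grin2a*, and whether the kainate receptor genes differ from these lists was not tested.

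The cultures held the markers of neurons and astrocytes, and some marker lists moved with the group. The summed level of 6 markers of glutamatergic neurons was 1004 to 1299 CPM in shCtrl and 669 to 738 CPM in sh*Pla2g4e* libraries, with *Slc17a7* and *Neurod6* called lower and *Slc17a6* higher. That of 6 markers of GABAergic neurons was 729 to 782 and 599.5 to 666 CPM (*Slc32a1* and *Lhx6* lower), and that of 6 pan-neuronal markers 4540 to 4843 and 4037 to 4485 CPM (*Rbfox3* and *Map2* lower, *Nefl* higher). The 6 astrocyte markers summed to 1471 to 2146 and 1068 to 1863 CPM (*Aqp4* lower). The groups overlapped, but the sum was lower in all 3 replicate pairs (1471 to 1109, 1734 to 1068 and 2146 to 1863 CPM). None of the 7 markers of the oligodendrocyte lineage was called (482 to 537 and 499 to 581 CPM). Microglial markers were near 0 (2.16 to 4.53 and 2.13 to 3.095 CPM in sum, with 2 of 6 below the filter), and those of endothelial and mural cells were low (20.7 to 27.5 and 20.7 to 29.6 CPM, with *Cldn5* at 0). With TMM factors, the sums of the 3 neuronal lists were lower without overlap between groups, as for *Grik1*, *Grik3*, *Neto1* and *Neto2*. The sums were not computed with library size alone. The part of these lists and of the astrocyte list in the values of the genes described here was not tested.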

How the data were processed

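Poly(A) RNA of shCtrl and sh*Pla2g4e* cultures was sequenced as 3 stranded libraries each. The authors aligned the reads with STAR 2.7.0d and deposited raw read counts per gene from featureCounts 1.6.0, without normalization. In the methods the genome is mm10 with GENCODE M18, but the file headers give GENCODE vM28 on GRCm39. No strand or read-pair option was set in the counting, so that reads of an overlapping antisense gene can enter a gene, and reads that map to several places were left out. Exons of *Pla2g4e* (2.2%), *Grik4* (0.99%), *Grid1* (1.53%), *Neto1* (2.62%) and *Neto2* (0.326%) overlap another gene, and further overlaps are given beside partner and other receptor genes. Among genes only counted in their lists, genes on the other strand overlap 32.1% of the exon bases of *Grin3b*, 13.5% of those of *Grin1* and 9.52% of those of *Grid2ip*. Symbols came from GENCODE vM21 and matched 52081 of 55357 genes.

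Counts were tested with edgeR 4.0.16 in R 4.3.3 (TMM factors of 0.951 to 1.04, quasi-likelihood test) over 21876 genes that reached 6 reads in 1 library or more, with Benjamini-Hochberg adjustment and a threshold of 0.01. The filter and threshold are those of the study, which used limma after voom. Alternatives were limma 3.58.1, DESeq2 1.42.0, other scalings and filters, a robust fit, a block for the replicate number, a looser threshold (0.05), and fits that left out 1 library. The test was first tested on simulated data. Libraries of a group differed by more than sampling noise (chi-square per gene 5.65 to 14.0).

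In the labels, each group has replicates 1 to 3. Deviations from the group means correlated at 0.189 to 0.461 between libraries of the same number and at −0.393 to 0.108 between others, over 10908 genes that averaged at least 3 in log2 CPM. The numbers were therefore treated as pairs in the fit with the replicate block and in the ratios within pairs. Neither the main fit nor the exact permutation tests used the pairs. An exact sign-flip test within pairs gave p = 0.25 for the shares of *Grik1*, *Grik3* and *Grik5*, the smallest that its 8 sign patterns can give. It gave 0.5 for the share of *Grik2*, 0.75 for that of *Grik4* and 0.5 for the ratio of *Neto2* to *Neto1*.

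Shares and ratios were tested with exact permutation tests over libraries. The 8 genes and all lists were chosen with earlier results of these data known, and some partner genes are not reported here and not counted in their list. The text names all 8 genes, *Pla2g4e*, partner genes from among those that passed the filter, the other receptor genes called (at most 3 in a direction), and the 3 genes nearest in profile to the lower and the higher gene with the smallest p. *Grin2b*, *Grin2c*, *Grin2d*, the single cell markers, the summed *Grik* level and share, and the ratios of *Grik3* to *Grik2* and *Grik5* to *Grik4* were chosen after their values were seen. *Gria1* to *Gria4* are named outside this rule, as are *Grin1* and *Grin3b*, which are named only for their overlaps. Sequences came from the study's oligonucleotide table and from GENCODE vM21 transcripts (GRCm38).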

Additional observations from a re-analysis of the deposited data

How the results depend on the processing

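The number of the 8 genes called lower was 1 and became 2 with DESeq2, the robust fit, no filter, the replicate block and a threshold of 0.05, and 1 to 2 when each library was left out, the added gene being *Grik1*. No alternative called any of them higher. Of the partner genes, 0 were called lower, against 1 with DESeq2, 1 with no filter, 3 with the replicate block, 2 at 0.05 and 0 with any library left out. In the other direction 0 became 1 with library size alone, 2 with no filter, 3 with the block, 2 at 0.05 and 0 to 1 with a library left out. Of the AMPA and NMDA receptor genes, 2 were called lower, against 3 with the robust fit, 4 with DESeq2, no filter, the block or a threshold of 0.05, and 1 to 4 with a library left out. The share of all genes called moved as well. Against 4.0% lower and 2.48% higher, it was 7.42% and 4.2% with DESeq2 (of 16362 genes with an adjusted p), 4.45% and 2.7% with the robust fit, 4.23% and 3.08% with no filter, 2.78% and 3.64% with library size alone, 9.02% and 6.5% with the block, 7.31% and 5.55% at 0.05, and 2.07% to 4.31% and 1.14% to 3.15% with a library left out. The cause of these changes was not tested. The log2 fold change of *Grik4* turned to −0.03 without shCtrl replicate 2 and to −0.0004 without sh*Pla2g4e* replicate 1, and its share of the *Grik* total, which differed by 0.162 percentage points, to −0.296 and −0.113 (−0.296 to 0.492 over all libraries left out). The other 7 genes and the other shares kept their direction in every alternative run, and apart from the genes given with a blocked value the block changed no call among the genes named. The 8 genes had 436 to 7028 reads per library, far above the filter of 6 reads. The transcript length (longest coding transcript) was chosen after seeing the data.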
